A study of Homo sapiens with 10 samples.

Results

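The early change in sgRNA abundance in parental 22Rv1 cells was measured by setting both T6 libraries of the parental line against its T0 library. Members were chosen by column name alone, which gave 3 of the 10 libraries of a genome-wide CRISPR knockout screen, and every one of the 55849 listed sgRNAs was taken and summed per gene symbol. 22Rv1 is an established human prostate cancer cell line. It was infected at a multiplicity of 0.3 with pool B of lentiCRISPRv2, a lentiviral vector that carries Cas9 with one sgRNA, and infected cells were selected with puromycin. The parental arm has no added transgene named in its labels. The second arm, used here only for contrast, overexpressed NMYC, the protein of MYCN, and was infected and selected in the same way. T0 is a single library per arm, collected after selection, and T6 and T12 are 2 libraries each, from duplicate cultures plated after T0 and passaged every 72 hours. The labels also give 12 generations of culture and 300-fold coverage. Whether T6 counts days, passages or generations is not stated in the labels. Both cultures descend from 1 infected population, so a p-value reflects only differences that arose once they had been plated, and no second parental T0 library was analysed here. The libraries are amplicons from genomic DNA and hold no expression values, so the cell type and the arm could not be checked against marker genes.

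In a dropout screen each cell carries one sgRNA, and Cas9 cuts the gene that the sgRNA names. Cells that lose a gene needed for growth divide less, so their sgRNA becomes rarer in the pool, while loss of a growth restraint makes its sgRNA more common. Genes of the ribosome, the proteasome, the spliceosome and DNA replication are needed by nearly all dividing human cells and give the usual yardstick of such a screen, and non-targeting sgRNAs, which match no human gene, give its null.

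The T0 library held 18398571 counts, T6 replicate 1 held 12905342 and T6 replicate 2 held 8783512. The median sgRNA had 84 counts at T0, 169 in T6 replicate 1 and 50 in T6 replicate 2. The spread over sgRNAs was as unlike as the depth. The top 10% of sgRNAs held 50.2% of the counts at T0, 32.1% in T6 replicate 1 and 51.4% in T6 replicate 2, and the Gini coefficient, which is 0 for an even pool, was 0.711, 0.502 and 0.701. T6 replicate 1 was thus the most even of the 3, and T6 replicate 2 resembled T0 in evenness. At T0, 33.4% of the kept sgRNAs lay under 30 counts.

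Targeting and non-targeting sgRNAs moved by similar amounts. On the CPM scale (counts divided by each library's TMM-adjusted size, with the usual scaling), with 1 CPM added and relative to the median sgRNA, 6819 of 53040 kept sgRNAs, or 12.9%, were at least 4-fold lower in both T6 libraries than at T0, and 5001, or 9.43%, were at least 4-fold higher in both. Among the 934 kept non-targeting sgRNAs the shares were 11.1% lower and 11.0% higher, against 12.9% and 9.40% of the targeting sgRNAs. The median non-targeting sgRNA lay 0.18 above the median sgRNA on the log2 scale in T6 replicate 1 and 0.12 above it in T6 replicate 2. The interquartile range of the log2 change was 3.20 for non-targeting and 3.26 for targeting sgRNAs in replicate 1, and 3.46 and 3.41 in replicate 2. Controls therefore spread about as widely as sgRNAs that cut a gene.

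The T6 cultures also differed widely from each other. Relative to the median sgRNA, 17083 sgRNAs, or 32.2%, differed at least 4-fold between them, against 39.7% between T0 and T6 replicate 1 and 43.6% between T0 and T6 replicate 2. Summing over the sgRNAs of a gene narrowed this. Of 18197 genes with at least 2 kept sgRNAs, 16.7% differed at least 4-fold between the T6 cultures, 20.7% between T0 and replicate 1 and 31.0% between T0 and replicate 2.

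The size and sign of the change followed the starting level. Relative to the median sgRNA, the quintile of sgRNAs with the lowest T0 level had a median log2 change of 2.01 in T6 replicate 1 and 1.40 in replicate 2, and the quintile with the highest T0 level had -2.51 and -2.38. Non-targeting sgRNAs followed the same course, with 1.92 and 1.51 in the lowest quintile and -2.65 and -2.44 in the highest. The T0 level is the denominator of these changes, so the ordering and the change share it. When the same sgRNAs were ordered by the T0 library of the NMYC arm, which does not enter the ratio, the medians ran from 0.33 in the lowest quintile to -0.31 in the highest in replicate 1, and from 0.01 to -0.04 in replicate 2.

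**Figure D1:**
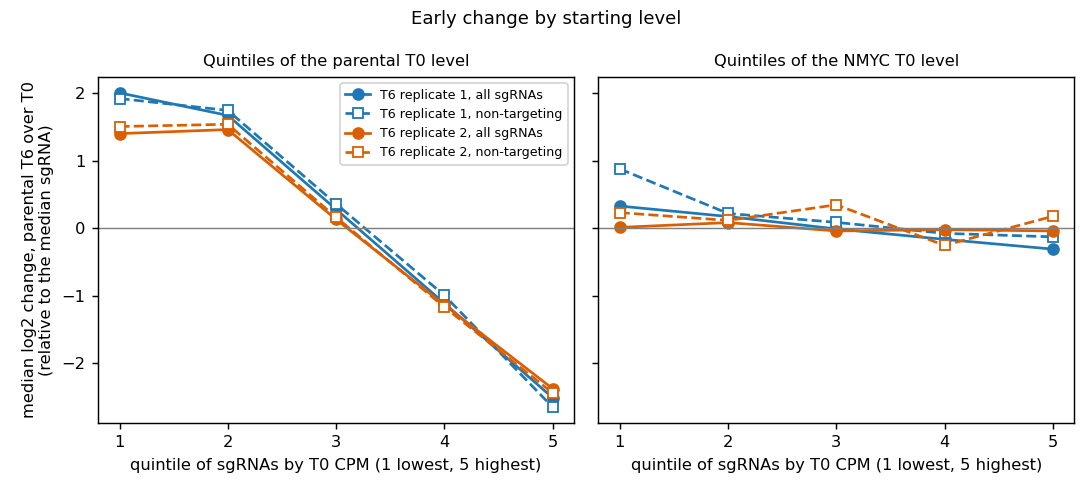
Median log2 change from T0 to T6 relative to the median sgRNA (vertical axis, pseudocount 1 CPM) for quintiles of the kept sgRNAs ordered by parental T0 level (left) or by NMYC T0 level (right), with circles for all sgRNAs and open squares for non-targeting ones. On the left the medians pass from 2.01 and 1.40 in the lowest quintile to -2.51 and -2.38 in the highest, and the controls run alongside; on the right they stay between -0.31 and 0.33 for all sgRNAs.

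A single sgRNA passed the test. It targets RBM15, an RNA-binding adaptor of the complex that writes N6-methyladenosine (m6A) onto RNA. HGLibB_40439 had 6128 counts at T0, 18 in T6 replicate 1 and 0 in T6 replicate 2, or 457, 1.03 and 0 CPM. It lay far below its T0 level in both cultures, with a log2 fold of -10.29 relative to the median sgRNA, which itself stood at 0.65, and an adjusted p of 0.00107 (edgeR quasi-likelihood test, Benjamini-Hochberg). This is 0.00189% of the 53040 sgRNAs tested as lower, and 0% passed as higher. Without T6 replicate 2 no sgRNA passed, and 0 passed as lower with at least 30 counts required at T0 or with both T0 libraries as baseline. Without T12 replicate 1 or 2, which enter only through the spread, 3 passed, the others targeting FCGRT and HES6.

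The other RBM15 sgRNAs did not show the same course. HGLibB_40441 had 187 counts at T0, 281 in T6 replicate 1 and 25 in replicate 2. The cultures thus fell on either side of its T0 count. HGLibB_40440 had 0 counts at T0 and 1 and 0 at T6, and was left out as too low. The RBM15 sum went from 471 CPM to 17.1 and 3.58 (log2 value -5.29, SE 1.27, edgeR adjusted p = 0.25), so it rests on 1 sgRNA that made up nearly all of it at T0. In later parental libraries HGLibB_40439 was counted 253 and 134 times at T12. In the NMYC arm it started at 12 counts and had 2 and 29 at T6 and 0 in both T12 libraries, so its drop could not be followed there.

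RBM15 belongs to a list of 15 tested m6A genes, which did not move one way. Of these, 6 lay below the median gene, and the list median was 0.51, where 0 is the median gene, but it turned to -0.78 when only sgRNAs with at least 30 counts at T0 were kept. METTL3, the catalytic writer, went from 118 CPM at T0 to 23.3 and 55.3, with all 3 sgRNAs below the median sgRNA in both cultures (log2 value -1.38, edgeR adjusted p = 0.563). METTL14, its obligate partner, went the other way, from 0.373 CPM to 23.4 and 35.1 (log2 value 6.46, adjusted p = 0.25), but its T0 value rests on 5 counts. FTO, an m6A eraser, went from 114 CPM to 46.0 and 11.5, and ALKBH5, the other eraser, from 104 to 65.9 and 20.4. Subunits of the writer were thus found on both sides, and no gene of the list passed the edgeR test.

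Complete loss of an abundant sgRNA was rare. Of the 17127 sgRNAs with at least 300 counts at T0, 79 had 0 counts in T6 replicate 1, 343 had 0 in the shallower replicate 2 and 27, or 0.158%, had 0 in both. Among non-targeting sgRNAs with at least 300 counts it was 1 of 267, or 0.375%. The 27 included one sgRNA each for the ribosomal protein genes RPL34 (1665 counts at T0) and RPL41 (415), for DAD1, a subunit of oligosaccharyltransferase (994), for NELFB, which pauses RNA polymerase II (548), and for HCCS, which attaches haem to cytochrome c (668). They also included FCGRT, the neonatal Fc receptor (2003), and HES6, a transcription factor of the Notch-related HES family (1973). Further ones targeted KRT40 (323), KCNQ1 (311), FCN1 (783) and THBD (784). In each of these genes only 1 sgRNA was at 0 in both cultures. The NMYC T0 library held 0 counts of the RPL34 and DAD1 sgRNAs, 1 of RPL41, 37 of HCCS and 176 of NELFB. Their high parental T0 counts come from a single library.

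The reverse, from 0 counts at T0 to at least 300 in both T6 libraries, was also rare, with 5 of 2057 sgRNAs, or 0.243%. These 2057 were 3.88% of the kept sgRNAs, and 1434 of them, or 69.7%, were counted at least once in both T6 libraries. A count of 0 in the T0 library allows a level of up to 0.224 CPM, the worth of 3 counts, which covers counting error only.

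**Figure D2:**
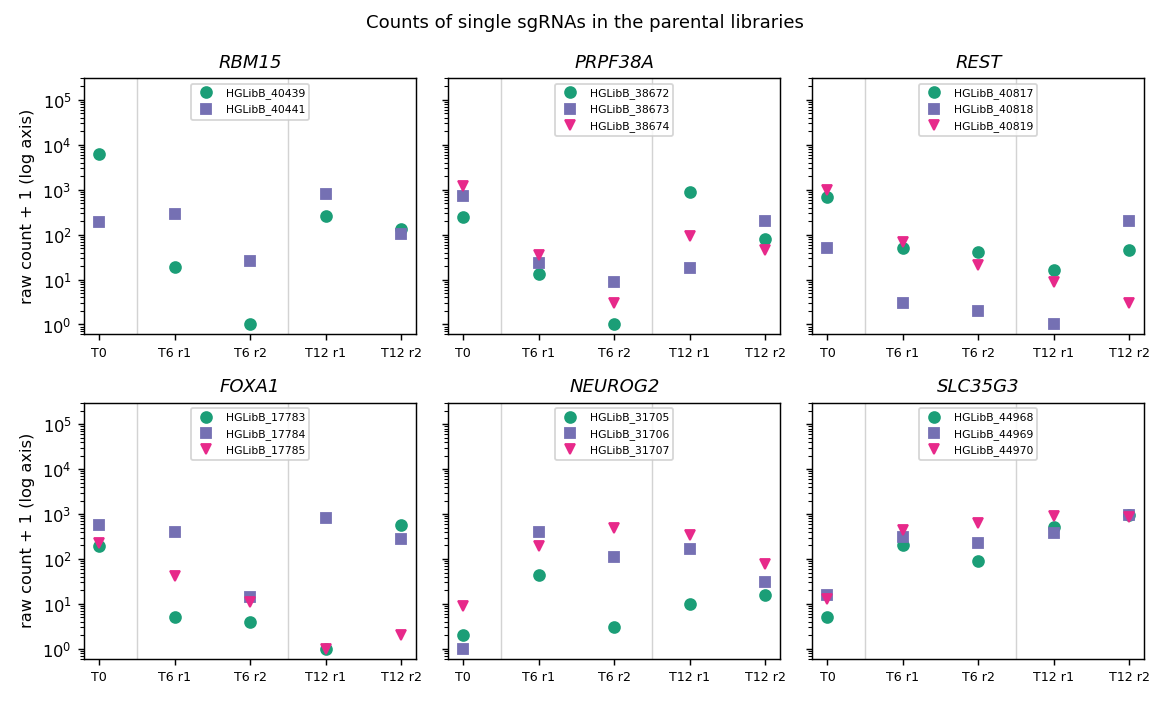
Raw count plus 1 (log axis) of each kept sgRNA of 6 genes in the 5 parental libraries, where r1 and r2 are the replicate cultures; counts are not scaled to depth. One RBM15 sgRNA drops from 6128 to 18 and 0 while the other stays between 25 and 281 at T0 and T6, all 3 PRPF38A sgRNAs are low in both T6 libraries, all 3 REST sgRNAs are lower in both T6 libraries than at T0, and all 3 SLC35G3 sgRNAs are higher in both T6 libraries.

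No gene passed when counts were summed over sgRNAs: edgeR called 0% of 18197 genes, and the smallest adjusted p was 0.25. At an unadjusted p under 0.05, 1431 genes (7.86%) lay below the median gene and 1060 (5.83%) above it. That p tests the fold change under TMM against no change, not against the median gene, and the balance moved with the setting. Split by the sign of the fold change, 1918 were lower and 868 higher under factors from non-targeting sgRNAs. With at least 30 counts at T0 required, 326 were lower and 495 higher of 12564 genes. Robust rank aggregation, which weighs each sgRNA alike and is the kind of score MAGeCK uses, also called 0 genes in either direction, although 912 and 888 were lower and higher by its unadjusted p at the same threshold. DESeq2 on the same sums called 422 genes lower and 606 higher. The genes named below as low or high are described by their values, since none passed the edgeR test.

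Agreement between sgRNAs gives a second way to order genes. Among 15248 genes with 3 kept sgRNAs, all 3 lay below the median sgRNA in both T6 libraries in 810 (5.31%) and above it in 792 (5.19%). Taken singly, 37.4% of the 51642 sgRNAs of all tested genes lay below the median sgRNA in both T6 libraries, and 37.2% above it. Whether the sgRNAs of a gene agreed more often than unrelated ones was not tested. Since each library is centred on its median sgRNA, the balance of the sides is largely set by the centring. Both sets were far from average at parental T0, which is the denominator of the changes that define them. The genes with all sgRNAs low had a median of 158 CPM at T0 and those with all sgRNAs high had 6.72 CPM, against 57.4 CPM over all genes with 3 sgRNAs. Of the high set, 754 genes (95.2%) had an sgRNA under 30 counts at T0, and of the low set 94 (11.6%), and 16 of the low set had one at 0 in all 3 libraries. In the NMYC T0 library the same sets had medians of 55.1 and 44.3 CPM, close to the 47.7 CPM of all such genes.

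PRPF38A, a component of the spliceosome before its activation, had the lowest log2 value among the 9 low genes described here, which have all sgRNAs low and the smallest p. Its sum was 165 CPM at T0, 3.94 in T6 replicate 1 and 1.43 in replicate 2 (log2 value -5.70, SE 1.36, edgeR adjusted p = 0.25). Its sgRNAs went from 251 counts to 12 and 0, from 742 to 22 and 8, and from 1213 to 35 and 2, so each was low in both cultures. At T12 the sum stood at 42.0 ± 31.1 CPM (SD, n = 2), against 2.69 ± 1.77 at T6, with 882 counts of the first sgRNA in one of them.

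RBMS1, a single-stranded nucleic acid binding protein, went from 193 CPM to 14.0 and 1.72. NOVA1, a splicing regulator of neurons, went from 544 CPM, the highest T0 value among the 9, to 60.8 and 32.4. NUDCD1, a protein with a NudC domain, went from 256 CPM to 20.1 and 4.30. In each the T6 cultures lay below T0 and differed from each other, and replicate 2 was the lower.

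Others of the 9 act at membranes or in immune signalling. CLEC12B, a C-type lectin receptor, went from 247 CPM to 16.7 and 5.73, and TICAM1, the TRIF adaptor of Toll-like receptors, from 361 to 38.6 and 17.8. GJD2, the neuronal gap junction protein connexin 36, went from 380 CPM to 44.0 and 35.6, and FAM159A, now named SHISAL2A, from 237 to 11.9 and 13.6. ENTPD4, a nucleotidase of the Golgi, went from 179 CPM to 15.0 and 9.61. The log2 values of the 9 genes ran from -5.70 to -3.05 and the edgeR adjusted p was 0.25 for each, while DESeq2 gave adjusted p-values from 0.00048 (PRPF38A) to 0.0107 (RBMS1). All 9 started high, between the 89.3rd and the 99.99th percentile of genes at T0, against a median gene of 53.1 CPM. The part of the high T0 level in these values was not tested.

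On the other side 10 genes, chosen in the same way, started low, from 9 to 77 counts at T0, or between the 0.857th and the 8.59th percentile. SLC35G3, a solute carrier gene with near-identical copies whose sgRNAs may not be unique, went from 2.31 CPM to 54.8 and 136 (log2 value 5.57, SE 1.26, edgeR adjusted p = 0.25). Its 3 sgRNAs went from 4 counts to 203 and 91, from 15 to 315 and 231, and from 12 to 442 and 627. Each was higher in both cultures, and the sum was at 117 and 173 CPM at T12. NOTUM, an enzyme that inactivates Wnt ligands, went from 3.58 CPM to 101 and 149, and MSL3, a subunit of a histone H4 acetyltransferase complex, from 5.75 to 49.5 and 250.

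Tissue-restricted developmental regulators stood beside enzymes in this group. OTX2, a homeobox factor of head and eye development, went from 1.34 CPM to 56.3 and 144, although 1 of its sgRNAs went only from 10 counts to 160 and 11. NEUROG2, a proneural transcription factor and the gene in the title of the study, went from 0.672 CPM to 36.2 and 87.6 (log2 value 6.71, SE 1.82, edgeR adjusted p = 0.25). Its T0 sum was 9 counts in all. Its sgRNAs had 1, 0 and 8 counts at T0, then 44, 394 and 195 in T6 replicate 1 and 2, 109 and 500 in replicate 2. At T12 the NEUROG2 sum was 33.1 and 7.52 CPM.

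PUS7, a pseudouridine synthase, went from 1.64 CPM to 19.9 and 226, and ALDH1B1, a mitochondrial aldehyde dehydrogenase, from 2.39 to 73.9 and 147. IL1RL1, the interleukin-33 receptor, went from 1.27 CPM to 24.8 and 245, SPAG1, which helps assemble axonemal dynein, from 4.55 to 60.4 and 260, and SLC25A31, a germ-cell ADP/ATP carrier, from 2.09 to 48.7 and 184. For PUS7 and IL1RL1 replicate 2 lay far above replicate 1. In all 10 genes replicate 2 was the higher culture. With both T0 libraries as baseline their log2 values ran from 2.57 (SLC35G3) to 4.45 (PUS7), against 4.91 to 6.93 with the parental T0 alone. This baseline averages both T0 libraries on the log2 scale, so the low parental T0 of these genes still enters it. At NMYC T0 SLC35G3 stood at 120 CPM and PUS7 at 20.9 CPM. The part of the low T0 counts was not tested.

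**Figure D3:**
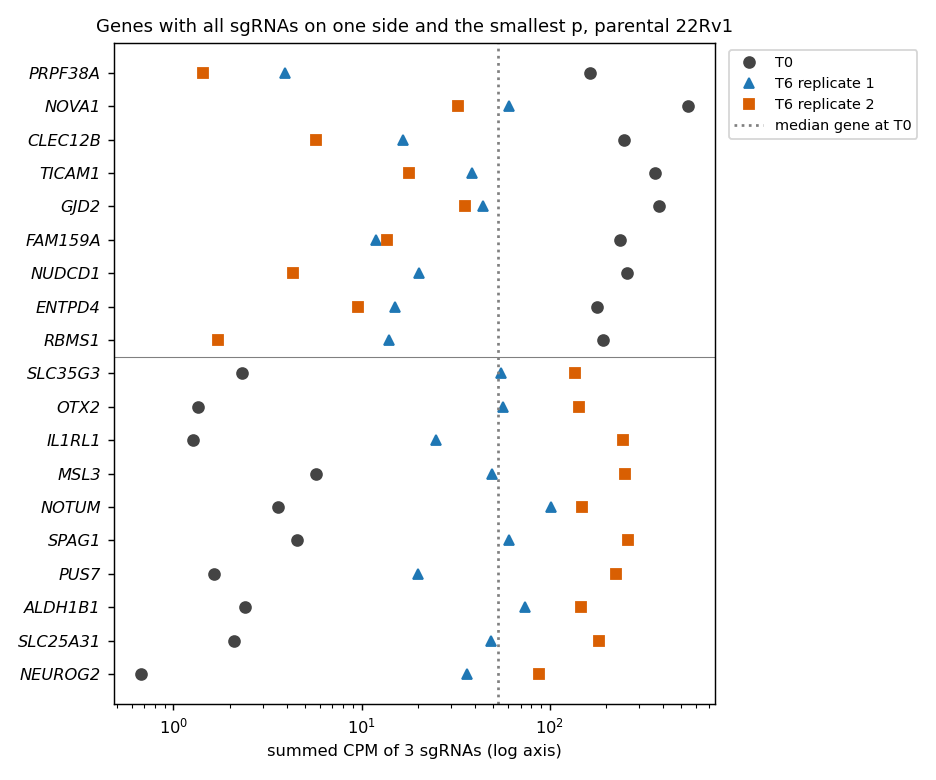
Summed CPM of 3 sgRNAs (log axis) at T0 (circles) and in each T6 culture (triangles and squares) for 9 genes with the smallest p and all sgRNAs low (upper) and the 10 with all sgRNAs high (lower); the dotted line is the median gene at T0, 53.1 CPM. The upper genes start at 165 to 544 CPM and the lower ones at 0.672 to 5.75 CPM. They were chosen by p and by side, so T0 lies apart from T6 by that choice.

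The lists of genes needed by most cells lay close to the median gene. Over the ribosome, proteasome, spliceosome, replication and RNA polymerase II lists together, 156 of 276 tested genes (56.5%) were under that gene, and their median log2 value was -0.24. At an unadjusted p under 0.05, 22 (7.97%) lay low and 16 (5.80%) high, close to the 7.86% and 5.83% of all genes, and 0 passed the edgeR test. In a list of 491 genes of families that are silent in most tissues, such as olfactory receptors, 235 were under the median gene and the list median was 0.05.

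The spliceosome list was the lowest of these in both cultures. Of 71 tested genes 45 (63.4%) lay below the median gene, the list median was -0.39, and its medians were -0.57 in T6 replicate 1 and -0.52 in replicate 2. At an unadjusted p under 0.05, 9 genes (12.7%) were low, against 7.86% of all genes, and 5 (7.04%) were high, against 5.83%. Of 60 genes with 3 sgRNAs, 7 (11.7%) had all of them low and 2 (3.33%) all high, against 5.31% and 5.19% of all genes. They included PRPF38A, SNRNP70, CRNKL1, SF3A2, SF3A3 and LSM7.

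SNRNP70, the 70K protein of the U1 particle, went from 366 CPM to 36.7 and 34.1 (log2 value -3.16, SE 1.27, edgeR adjusted p = 0.281). SNRPG, a ring protein of the Sm core, went from 287 CPM to 39.1 and 35.7 (-2.73, adjusted p = 0.254), and CRNKL1, a scaffold of the active spliceosome, from 244 to 47.1 and 44.6. In these the cultures gave nearly the same value. Core members also stood on the other side: SNRPA1, a protein of the U2 particle, went from 0.448 CPM, or 6 counts, to 34.7 and 37.4 (6.51, adjusted p = 0.25), and LSM4 from 6.50 CPM to 66.7 and 40.9. The list had a median of 59.2 CPM at T0 and 27.7 and 35.7 at T6, against 53.1, 35.3 and 45.6 over all genes.

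The cytosolic ribosome list of 74 genes had 41 below the median gene and a median of -0.27, and by unadjusted p 6 members (8.11%) were low and 4 (5.41%) high, again close to the shares of all genes. RPL35A went from 144 CPM to 12.9 and 17.2 (log2 value -3.05, edgeR adjusted p = 0.277), and RPL34 from 284 CPM to 49.7 and 46.5 with all 3 sgRNAs low. RPL10 went from 138 CPM to 14.7 and 9.61, although its sgRNA HGLibB_41800 rose from 0 CPM to 4.46 and 0.573. RPS27A, which encodes ubiquitin fused to a ribosomal protein, lay on the other side, going from 8.06 CPM to 47.2 and 147. Ribosomal protein genes have many processed copies in the genome, so where their sgRNAs cut is uncertain.

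Proteasome genes lay low in one culture only, with list medians of 0.12 in T6 replicate 1 and -0.40 in replicate 2 over 32 genes. ADRM1, a ubiquitin receptor of the proteasome, went from 151 CPM to 38.4 and 17.5 with all sgRNAs low, and PSMD8, a lid subunit, from 1.19 to 12.3 and 45.4. Aminoacyl-tRNA synthetase genes split in the same way, with medians of 0.91 and -0.32 over 23 genes. The 49 replication genes had medians of 0.13 and -0.20. RRM1, the large subunit of ribonucleotide reductase, went from 149 CPM to 25.5 and 23.4, although its sgRNA HGLibB_42197 rose from 2.02 CPM to 19.7 and 2.58. Among 50 genes of RNA polymerase II and general transcription 25 lay below the median gene, and TAF8, a TFIID subunit, had the lowest log2 value, -3.72, going from 252 CPM to 16.6 ± 13.3 (SD, n = 2), but it stood at -0.30 with both T0 libraries as baseline.

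**Figure D4:**
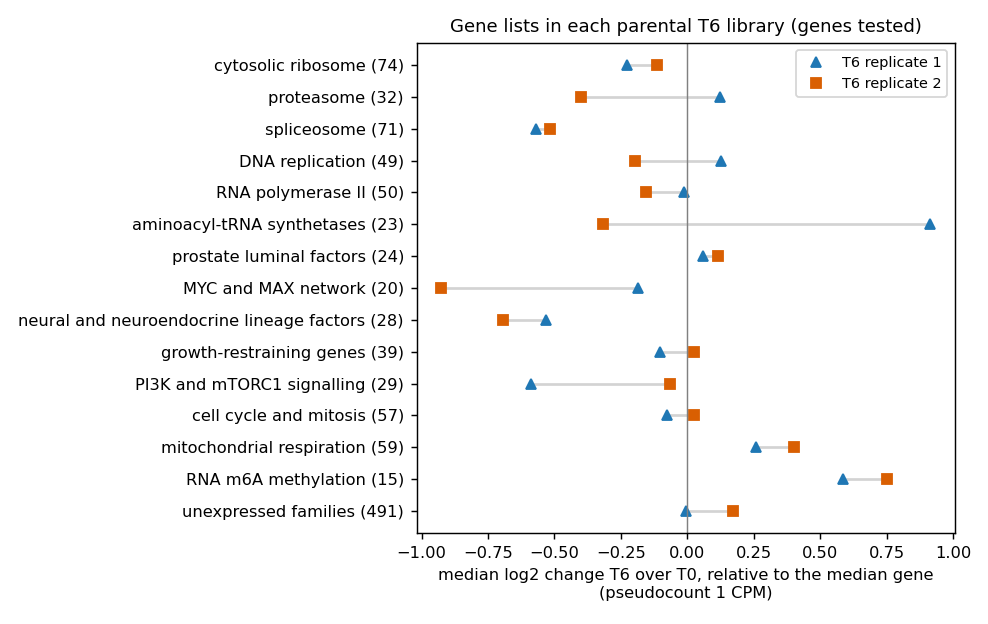
Median log2 change from T0 to T6 relative to the median gene (horizontal axis, pseudocount 1 CPM) of each gene list in T6 replicate 1 (triangles) and replicate 2 (squares), with the number of tested genes in brackets. The spliceosome list sits at -0.57 and -0.52 and the neural and neuroendocrine list at -0.53 and -0.69, while the proteasome and aminoacyl-tRNA synthetase lists fall on either side of 0.

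In a list of prostate luminal factors several members had low values and none passed the edgeR test. FOXA1, a pioneer factor that opens chromatin in luminal prostate cells, lay low through all of its sgRNAs. Its sum went from 74.7 CPM to 24.7 and 3.73 (log2 value -2.18, SE 1.19, edgeR adjusted p = 0.366). Its sgRNAs went from 194 counts to 4 and 3, from 583 to 389 and 13, and from 223 to 40 and 10, and the second differed most between cultures. FKBP5, a co-chaperone of HSP90, went from 243 CPM to at most 39.9, also with all 3 sgRNAs low (-2.82, adjusted p = 0.256). HOXB13, a prostate lineage factor, also differed between cultures, going from 74.1 CPM to 6.57 and 38.0.

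KRT8, a keratin of luminal cells, went from 153 CPM to 15.3 and 11.9 over 2 sgRNAs. ESRP1, an epithelial splicing factor, went the other way, from 5.30 CPM to 82.4 and 91.0 (log2 value 4.24, edgeR adjusted p = 0.25). Its sgRNA HGLibB_15566 did not follow, going from 2.91 CPM to 3.77 and 1.43. KLK3, which encodes prostate-specific antigen, stayed near the median gene, going from 55.4 CPM to 36.6 and 49.7. Over the whole list of 24 genes 13 lay below the median gene. The list median of the fitted values was -0.14, while the medians per culture were 0.06 and 0.12, so the list had no clear side.

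In the list of 28 neural and neuroendocrine lineage factors, 19 (67.9%) lay below the median gene, and the medians were -0.53 in T6 replicate 1 and -0.69 in replicate 2. REST, which represses neuronal genes in non-neuronal cells, went from 129 CPM to 6.86 and 8.75 (log2 value -3.84, SE 1.38, edgeR adjusted p = 0.256). Its sgRNAs went from 699 counts to 50 and 40, from 50 to 2 and 1, and from 974 to 68 and 20, all low in both cultures. At T12 the REST sum was 1.49 and 15.3 CPM. In the NMYC arm REST lay on the other side, going from 10.6 CPM at T0 to 22.9 and 24.1 at T6 (log2 value 1.38). SYP, the synaptic vesicle protein synaptophysin, went from 394 CPM to 44.4 and 54.9 (-2.78, adjusted p = 0.25) with all 3 sgRNAs low, as were those of NCAM1. The other 9 genes lay above the median gene, among them NEUROG2, NKX2-1 (log2 value 3.33) and DLL3 (3.51). At an unadjusted p under 0.05, 3 members (10.7%) were low and 2 (7.14%) high, against 7.86% and 5.83% of all genes. The same list had 14 of 28 genes below the median gene in the NMYC arm, with a median of 0.16.

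The MYC and MAX list had 13 of 20 genes below the median gene but differed between cultures, with medians of -0.19 and -0.93. MYC went from 60.7 CPM to 27.1 and 29.4 (log2 value -0.90, edgeR adjusted p = 0.768) and MYCN from 78.8 to 12.2 and 14.8 (-2.34, adjusted p = 0.415). MAX, the shared partner of the MYC proteins, went from 27.6 CPM to 34.0 and 90.6. Each sum rests mostly on 1 sgRNA that held 802 counts for MYC, 917 for MYCN and 367 for MAX at T0. The other MYC sgRNAs were higher in both cultures, going from 10 counts to 75 and 23 and from 1 to 121 and 182, and 1 MYCN sgRNA went from 0 to 36 and 44. With both T0 libraries as baseline the MYCN value was -0.17. None of the 3 genes passed.

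Genes whose loss is known to free growth did not lie high as a list. In a list of 39 growth-restraining genes 19 lay below the median gene, and its medians per culture were -0.10 and 0.03. RB1, which restrains entry into S phase, went from 33.4 CPM to 3.77 and 19.1 (edgeR adjusted p = 0.668) and lay below the median gene. EZH2, the methyltransferase of Polycomb repressive complex 2, went from 209 CPM to 71.4 and 45.7 (log2 value -1.63, adjusted p = 0.34).

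Mitochondrial respiration genes lay slightly high, with 25 of 59 below the median gene and medians of 0.26 and 0.40. NDUFS1, a complex I subunit, went from 10.8 CPM to 81.8 and 338 (log2 value 4.49, edgeR adjusted p = 0.25), and COX6B1, a subunit of cytochrome c oxidase, lay low, from 40.3 CPM to 8.97 and 4.44. The PI3K and mTORC1 list had 14 of 29 genes below the median gene and a fitted median of 0.12, while its medians per culture were -0.59 and -0.07, so it had no clear side. LAMTOR2, a subunit of the Ragulator complex that holds mTORC1 at the lysosome, went from 254 CPM to 15.4 and 19.1 (-3.68, adjusted p = 0.254), and RRAGA, a GTPase that Ragulator anchors, from 146 to 39.5 and 21.9. The LAMTOR2 sgRNA HGLibB_25954 stayed near its T0 level, going from 8.51 CPM to 6.97 and 9.89. RICTOR, the defining subunit of mTORC2, had the highest log2 value of the list, 2.55, going from 11.8 CPM to 18.2 and 102. The 57 cell cycle genes had medians of -0.08 and 0.02.

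The early change was then set against that of the NMYC arm, a comparison of 2 T0 libraries and 4 T6 libraries with no shared sample. No gene differed between arms by edgeR: 0% of 18197 passed, and the smallest adjusted p was 0.207. At an unadjusted p under 0.05, 1185 genes had a lower and 520 a higher change in NMYC cells. These were split by the sign of the fitted difference, not relative to the median gene, and under median-of-ratios factors they were 1064 and 564. Of the 810 genes with all sgRNAs low in parental cells, 422 (52.1%) lay below the median gene in the NMYC early change, and of the 792 with all high, 401 (50.6%) lay above it. Over all 15248 genes with 3 sgRNAs 50.6% lay below it and 49.3% above, so both shares were within a few points of those of all genes.

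Among the 9 low genes named above, 6 kept a negative value in NMYC cells. PRPF38A went from 104 CPM to 6.99 and 12.4 there (log2 value -3.18), and RBMS1 from 122 to 10.2 and 21.7 (-2.70). Both were low in all 4 T6 cultures of the screen. NUDCD1, ENTPD4 and FAM159A had the opposite sign, and NUDCD1 started from only 12.7 CPM there. On the high side 8 of 10 had the opposite sign. NEUROG2 went from 61.4 CPM to 38.4 and 47.5 in NMYC cells (log2 value -0.28), and the test of the difference between arms gave an edgeR adjusted p of 0.256. Its T6 levels overlapped between arms, while the T0 values, from 1 library each, were 0.672 and 61.4 CPM.

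OR2B6, an olfactory receptor gene with no known role in epithelial cells, was also low in both arms. It went from 349 CPM to 30.7 and 15.1 in parental cells (log2 value -3.72, edgeR adjusted p = 0.25) and from 244 CPM to 23.6 and 25.8 in NMYC cells (-3.06). Its T0 level lay at the 99.5th percentile of parental genes. Proteasome genes were lower as a list in the NMYC arm, where 26 of 32 were under the median gene and the list median was -1.02, against 19 of 32 and -0.22 in parental cells, and this difference was not tested.

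**Figure D5:**
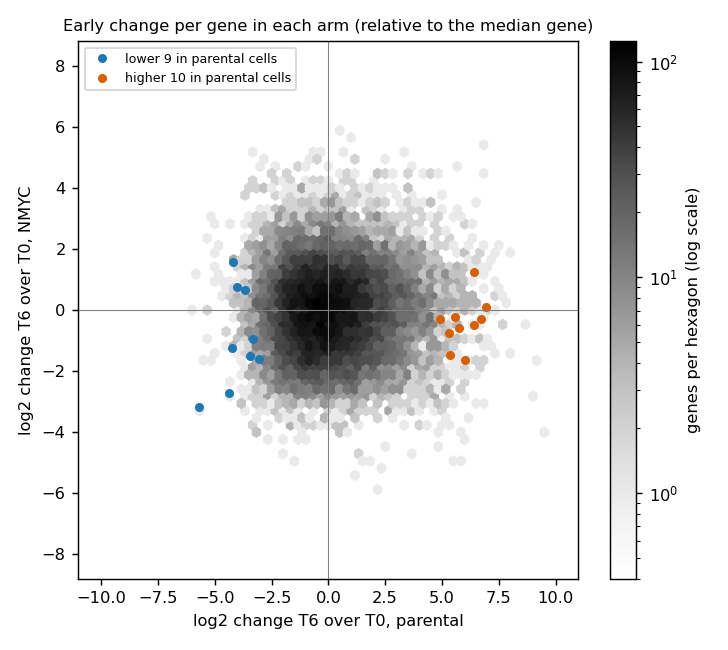
Early log2 change of each tested gene in parental (horizontal) and NMYC cells (vertical), each relative to its median gene, with shading for the number of genes and points for the 9 low and 10 high named genes. Of the 9 low, 6 lie below 0 in both arms; of the 10 high, 8 lie below 0 in NMYC cells.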

How the data were processed

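The authors deposited one table of raw counts per sgRNA, whole numbers with no normalization, for 10 libraries. MAGeCK is named, without a version, per the submitters' processing notes, and how reads were trimmed and matched to sgRNAs is not stated there. The labels give a pool of 65000 sgRNAs and the table lists 55849. The table gives no coordinates and no sgRNA sequences. Columns were matched to samples by name, and 0 columns were unmapped.

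A minimum of 20 counts, averaged over all 10 libraries, kept 53040 sgRNAs and left out 2809, and their counts were summed per symbol for the 18197 genes with at least 2 kept. Both levels went through the quasi-likelihood test of edgeR 4.0.16 (R 4.3.3) with the TMM factors of the sgRNA table, in a fit of all 10 libraries with 6 group means and 4 residual degrees of freedom, and adjusted by Benjamini-Hochberg at 0.05. The T0 library, which has no replicate, takes its spread from the groups that have one. The common dispersion was 1.11 for sgRNAs and 0.451 for genes. Scripts were tested on simulated data.

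A gene's log2 value is the fitted fold change of its sum minus that of the median gene, which was -0.21 under TMM, -0.32 under median-of-ratios factors and -0.41 under factors from non-targeting sgRNAs. The median sgRNA stood at 0.65. Changes per library and list medians per library use log2(CPM + 1), relative to the median sgRNA or gene. Sums weigh abundant sgRNAs most. The amplicons carry no molecular identifiers, so depth and the limits drawn from it cover counting error only. SE is the fitted log2 fold change over the square root of its F statistic.

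The libraries, gene lists and tests were chosen with earlier results of these data known, so lists are described and not tested. Named genes are, per direction, the 10 smallest p among genes with at least 3 sgRNAs all on the same side of the median sgRNA in both T6 libraries; the target of each sgRNA past the threshold; 12 set genes of the MYC, prostate lineage and tumour suppressor fields; and per list the lowest and highest member with 3 sgRNAs, of which some are not printed. Some genes of this rule are not reported here. List members outside this rule, the sgRNAs at 0 and the genes with all sgRNAs on one side were picked after their values were seen. Of the 52 named symbols, 49 are current in RefSeq (GRCh38.p14). Alternatives were DESeq2 1.42.0, other normalizations, filters, sets of libraries and baselines, leaving out single libraries, the replicate block and robust rank aggregation.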

Additional observations from a re-analysis of the deposited data

How the results depend on the processing

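DESeq2 called 919 sgRNAs lower and 2787 higher, 422 genes lower and 606 higher, and 282 genes lower and 112 higher in the difference between arms; it left 6170 sgRNAs without an adjusted p. With at least 30 counts at T0 required, 0 sgRNAs were lower. With the 3 parental T0 and T6 libraries alone 12 were lower, all at 0 in both T6 libraries and RBM15 not among them. With both T0 libraries as baseline 0 were lower and 1 was higher, an sgRNA of TMEM68 (edgeR adjusted p = 0.0192). Leaving out single libraries gave 0 to 3 sgRNAs lower. The cause of these differences was not tested.

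Replicate numbers showed no clear pairing: the correlation of deviations of same-numbered T6 and T12 libraries was 0.0647 in parental and -0.00877 in NMYC cells. Such a correlation cannot show that the cultures were unpaired, since the spread between libraries was wide. With a replicate block, 1 sgRNA was lower, that of RBM15 (edgeR adjusted p = 0.00146), and 0 genes.

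For the 52 named genes, 826 of 860 values under alternatives kept their direction and side of the threshold, 34 passed by DESeq2 only and 0 reversed. At 30 counts at T0, 24 of the 52 could not be fitted, among them all 10 high genes. With both T0 libraries as baseline, 30 of the 52 lay over 1.5 times closer to 0, with 9 of the 10 high and 1 of the 9 low genes among them. The parental T0 remains part of that baseline. Of 80 list medians under alternatives 42 moved by more than the SD of the list's medians in the T6 cultures, and 18 changed sign. Among the latter were the m6A list at -0.78 with at least 30 counts at T0 and the aminoacyl-tRNA synthetases at -0.52 without T6 replicate 1. The 80 include medians under non-targeting factors that were not set relative to the median gene, which stood at -0.41. That shift is built into their moves and sign changes. The SD comes from log2(CPM + 1) values and the medians from fitted ones.

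A single T0 library, of which 33.4% of kept sgRNAs lay under 30 counts, limits every value, and spread between cultures exceeds counting error.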
